A study of Mus musculus with 7 samples.

Results

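Distal first arch mesenchyme was examined in single-cell RNA sequencing of the mouse pharyngeal apparatus with heart at embryonic day (E) 9.5, in 1 control library and 1 library named Tbx1 null. Its members were the cells with at least 1000 genes, at most 10% mitochondrial unique molecular identifiers (UMIs, each standing for 1 captured transcript), at least 2 UMIs of Barx1, at least 1 UMI of Dlx5 and Dlx6 together, and 0 UMIs of Hoxa2, Hoxa3, Hoxb3, Hoxd3, Sox10 and Foxf1. The rule found 958 of 8612 kept control cells and 1584 of 10577 kept null cells, that is 2542 of 19189 kept cells at E9.5. All 7 libraries together hold 65862 cell barcodes. Because the measured counts of these 9 genes chose the members, their levels in the members are given as description, and any comparison with cells chosen by other counts of the same genes is description too.

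Both E9.5 libraries came from embryos of a mixed Swiss-Webster background pooled within a genotype, and in both the sorted cells were EGFP positive and DAPI negative. The label is Wnt1-Cre/+;ROSA-EGFPf/+, in which Cre under the Wnt1 promoter switches on EGFP for good in the dorsal neural tube and in the neural crest that leaves it. Neural cells are thus sorted along with crest, and cells of the endoderm, surface ectoderm and mesoderm are not targeted. Some heart muscle RNA was nonetheless found among the sorted cells, as given below. The control library carries this genotype alone. The null library is titled Tbx1null and its genotype label reads Wnt1-Cre/+;Tbx1+/-;ROSA-EGFPf/+, whereas the study calls these embryos Tbx1 null and its supplement gives Tbx1-/-. Tbx1 could not settle this, since its level in the members was 0.254 CPM (counts of a class scaled to a common total) in control and 0.0522 CPM in null cells. The control library was made with version 3.1 of the droplet kit and the null library with version 3, so that kit and genotype cannot be told apart. With 1 library per genotype no test was possible, and every interval below is a 95% interval for counting error alone.

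Cranial neural crest that fills the first pharyngeal arch forms the upper and lower jaw and carries no Hox code, whereas the crest of the second arch expresses Hoxa2. Within the arch, endothelin signalling from the surrounding epithelium acts on the crest through Ednra and switches on the nested Dlx genes Dlx5 and Dlx6 in its ventral and distal part, which in turn are needed for Hand2 at the distal tip. Barx1 marks mesenchyme of the arch that will form cartilage and teeth. Tbx1 is a T-box factor of the pharyngeal endoderm, ectoderm and mesoderm, and its loss leaves the caudal arches unformed.

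The members were not rare in either library. They made up 11.1% of kept control cells (10.5% to 11.8%, Clopper-Pearson) and 14.98% of kept null cells (14.3% to 15.7%), a null to control ratio of 1.35 (1.25 to 1.45). Counted among mesenchymal cells, which had at least 3 UMIs of Twist1, Prrx1 and Prrx2 and none of Sox10, the shares were 23.6% and 26.1% and the ratio was 1.11 (1.04 to 1.19). The larger ratio over all kept cells stood beside a smaller share of neural cells, defined by at least 2 Sox2 UMIs and no mesenchymal factor, which were 13.0% of control and 8.26% of null cells. Each share is set by what was dissected and sorted as well as by the embryo, and their parts were not tested.

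**Figure D1:**
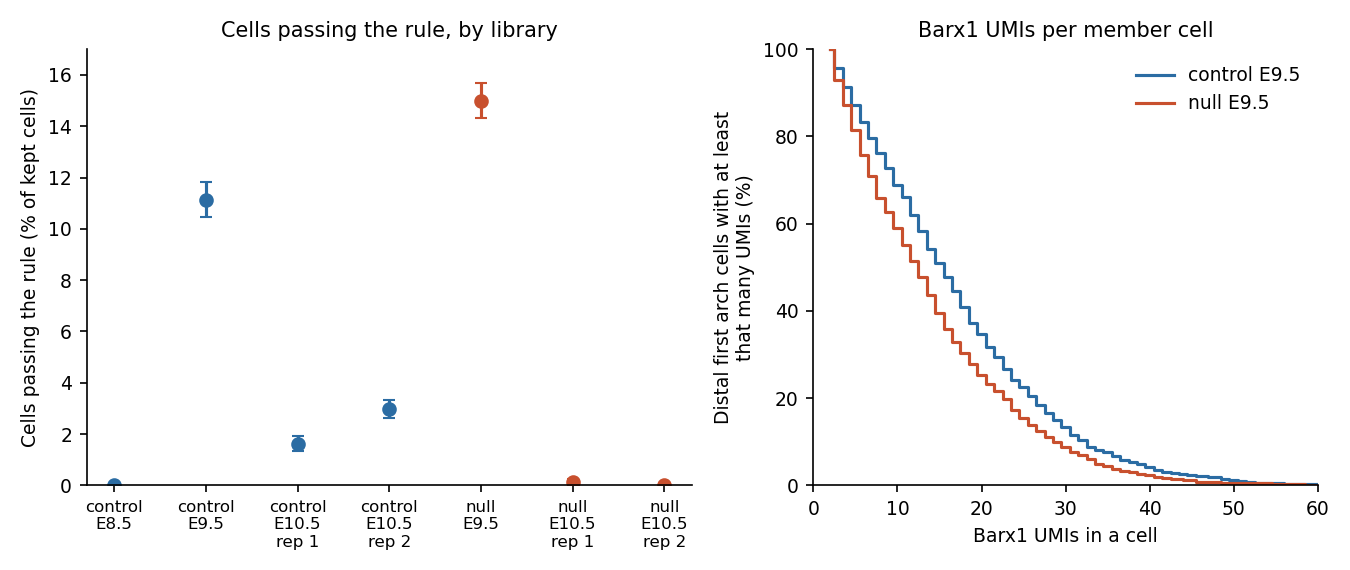
Left, cells that pass the rule as a percent of kept cells in each of the 7 libraries, with 95% Clopper-Pearson intervals; right, the percent of member cells (vertical axis) with at least a given number of Barx1 UMIs (horizontal axis) in each E9.5 library. The E9.5 libraries stand at 11.1% and 14.98%, no other library is above 2.96%, and over all members the null curve runs below the control curve, an order that the summed Barx1 level did not keep in members with Y-linked UMIs and no Xist.

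Barx1 placed most members well inside the rule. The median member held 15 Barx1 UMIs in the control library (quartiles 8 and 23) and 12 in the null library (quartiles 6 and 20), and 68.8% and 59.1% of members held at least 10. The log2 null to control ratio of Barx1 was -0.23 over all members and 0.10 over members with Y-linked UMIs and no Xist, which are of 1 sex in both libraries, so the order of the libraries turned with the cells compared. Just inside the threshold, 42 control and 113 null members had exactly 2 Barx1 UMIs. Just outside it, 65 control and 146 null cells met every other condition with 1 Barx1 UMI. For Dlx5 and Dlx6 together the median was 6 UMIs in both libraries, and 61 control and 120 null members had exactly 1.

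Of the cells with enough Barx1, 1377 in the control and 2334 in the null library also had a Dlx5 or Dlx6 UMI. The 6 excluded genes then removed 419 and 750 of them. Hoxa2, the selector gene of the second arch, took out 185 control and 292 null cells, Foxf1 140 and 304, and Sox10, a factor of early and glial crest, 105 and 204. A total of 191 control and 342 null cells were lost through exactly 1 UMI of the excluded genes.

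Counts were deep and alike in both libraries. The median member held 26178 UMIs and 4479.5 genes in the control library and 23726.5 UMIs and 4320 genes in the null library, with 1.83% and 2.45% mitochondrial UMIs. Summed over members this gave 25772432 and 39140075 UMIs. The libraries shared 27 barcodes, and 0 of these were members in both. Simulated doublets scored with Scrublet marked 45 control members (4.70%) and 104 null members (6.57%).

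The sexes of the pooled embryos differed between the libraries. Xist, the RNA of the inactive X chromosome, had a UMI in 0.209% of control and 64.0% of null members, and at least 1 of the Y-linked genes Ddx3y, Eif2s3y, Kdm5d and Uty had a UMI in 77.9% and 35.9%. In the null library 470 members had Y-linked UMIs without Xist and 916 had Xist without Y-linked UMIs. In the control library these numbers were 744 and 0. Cells of opposite sex come from different embryos, so sex and embryo cannot be told apart in this split, which is used below to compare cells of 1 sex. The study's supplement lists only a few embryos in each E9.5 pool. The number listed for the null pool, which held both sexes, leaves at least 1 null group to a single embryo. Which group this was is not given.

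Markers outside the rule showed arch mesenchyme. Twist1, Prrx1 and Prrx2, general factors of arch mesenchyme, stood at 803, 218 and 398 CPM in control members and at 830, 249 and 500 CPM in null members, and Twist1 had a UMI in 957 of 958 and 1583 of 1584 of them. Wnt5a, a marker that the rule did not use, stood at 73.9 CPM (70.5 to 77.5) in control and 63.4 CPM (60.9 to 66.0) in null members. Hox genes outside the rule summed to 3.08 and 4.44 CPM over 11 genes.

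RNA of other cell types was scarce. The 6 neural progenitor markers summed to 22.5 CPM in control and 21.5 CPM in null members against 1130 and 1142 CPM in the neural cells, and 6 neuron markers to 8.54 and 10.5 CPM. Glial crest markers summed to 15.7 and 22.2 CPM over 5 genes. Epithelial markers summed to 4.73 and 8.48 CPM over 5 genes, with Cdh1 and Trp63 at 0 in control members. Endothelial, blood, cardiomyocyte and pharyngeal muscle markers, 5 genes each, summed to between 0.338 and 1.69 CPM, and Nkx2-5 was at 0 in both libraries.

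The Dlx family was read in full (Dlx5 at chr6:6877805-6882085 and Dlx6 at chr6:6863334-6868568 in mm10, neighbours on opposite strands). Dlx5 stood at 183 CPM (178 to 188) in control and 178 CPM (174 to 182) in null members, and Dlx6 at 97.9 (93.9 to 102) and 87.5 CPM (84.5 to 90.5). Both chose the members, so these levels and their log2 ratios of -0.04 and -0.16 are description only. Dlx1 and Dlx2, which act in the whole arch, stood at 47.2 and 93.2 CPM in control and at 55.3 and 97.2 CPM in null members, close to the 53.1 and 99.0 CPM of control proximal Hox-negative cells described below. Dlx3 and Dlx4, which are nested further distally, stood at 16.6 and 8.62 CPM in control and 14.5 and 5.48 CPM in null members.

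Endothelin pathway genes were read from a list of 14. The receptor Ednra was sparse, at 6.25 CPM in control and 4.78 CPM in null members, and its ligand Edn1 was close to 0 (0 and 0.0783 CPM), and the epithelial cells that make it were not targeted by the sort. The G proteins Gnaq and Gna11 stood at 27.5 and 64.6 CPM in control and 31.7 and 63.5 CPM in null members. Mef2c, a transcriptional partner of the pathway, was 43.8 CPM in control and 34.9 CPM in null members. Hand2 (chr8:57320983-57324633), the distal-most target, stood at 51.6 CPM (48.7 to 54.5) and 51.0 CPM (48.8 to 53.3), a log2 ratio of -0.02 (-0.12 to 0.09), and Hand1 was at 0.0423 and 0.209 CPM. Of this list 4 genes reached 20 CPM and 0 passed 1.5-fold between genotypes, where 0.639% of all genes passed it upward and 3.24% downward, so nothing is read from the count.

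**Figure D2:**
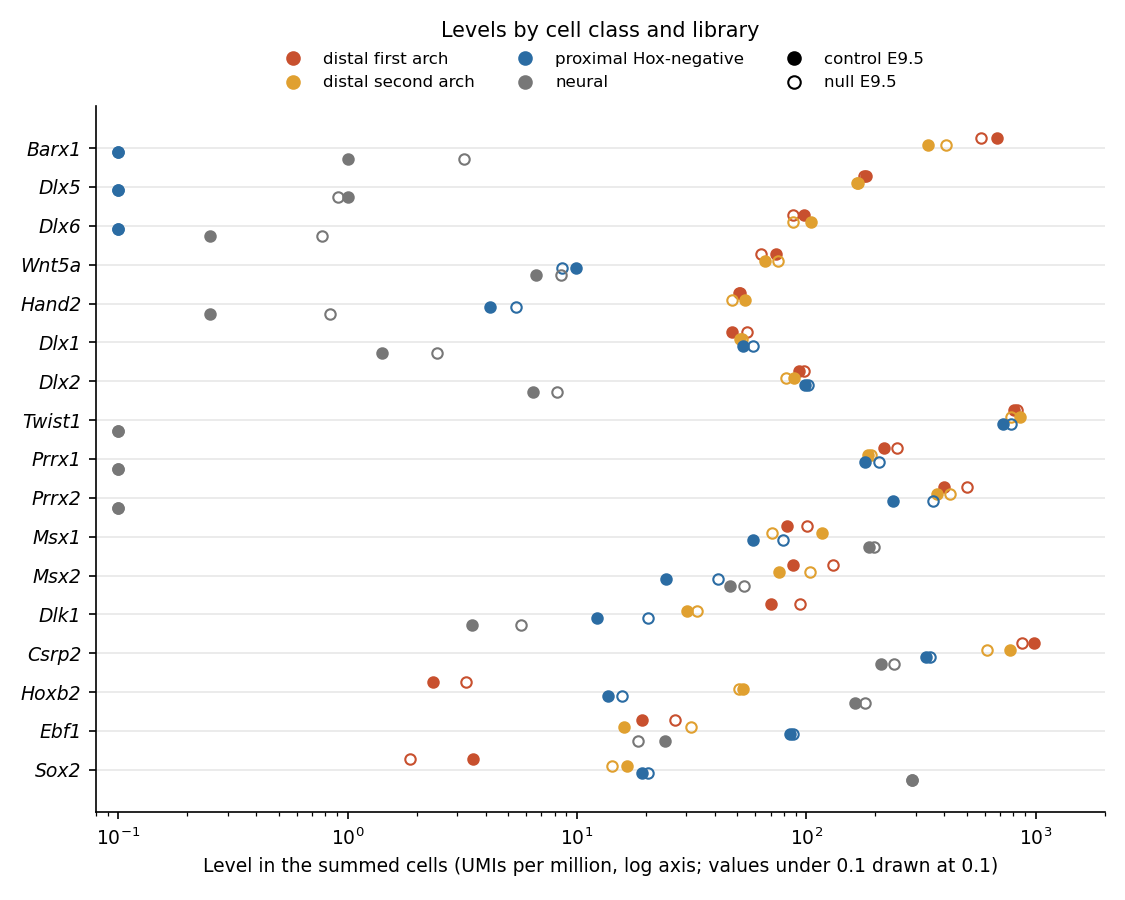
Levels of named genes in the summed cells of each class (colour) in the control (filled) and null (open) E9.5 library, in CPM on a log axis, with values under 0.1 drawn at 0.1. Wnt5a and Hand2 lie between 47.3 and 75.1 CPM in both distal classes and at or below 9.92 CPM in proximal Hox-negative cells, while Twist1 and Prrx1 lie close together in all 3 mesenchymal classes.

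Distal second arch cells were the closest class at hand. They met the same Barx1 and Dlx condition with at least 2 Hoxa2 UMIs and none of the other excluded genes, and numbered 76 control and 111 null cells. Only genes at 20 CPM or more in a class were compared, and a gene counted when it was at least 2-fold apart in the same direction in both libraries. Of 5159 genes, 0.0388% were higher in distal first arch cells and 0.233% were lower, which is 2 and 12 genes.

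Crym and Dlk1 were the 2 higher genes. Crym, a thyroid hormone binding protein, stood at 32.4 and 30.3 CPM in control and null distal first arch cells against 14.0 and 10.5 CPM in second arch cells. Dlk1 (chr12:109452823-109463336), an imprinted Notch-related ligand, stood at 70.3 and 93.6 CPM against 30.1 and 33.4 CPM. Its imprinted neighbour Meg3 was also higher in both libraries, at 94.8 and 129 CPM against 67.3 and 75.1 CPM, short of 2-fold.

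The 12 lower genes included Hox and Hox-partner genes. Hoxa2 was fixed by the rule. Hoxb2 stood at 2.37 and 3.29 CPM in distal first arch cells against 52.8 and 51.0 CPM in second arch cells, and Meis1, a Hox cofactor, at 3.04 and 4.52 against 39.2 and 47.0 CPM. Zfp503 stood at 4.86 and 4.33 against 37.2 and 26.1 CPM. The others were Jun, Zfp703, Arid3b, Hoxb3os, Meox1, Tubb2b, Map1b and Epha3. Other genes were at least 1.5-fold apart in both libraries without reaching 2-fold in both. Ldhb, a lactate dehydrogenase subunit, stood at 69.5 and 99.1 CPM in distal first against 36.3 and 55.0 CPM in distal second arch cells. Meis2, a relative of Meis1, stood at 138 and 132 against 254 and 249 CPM, Cd24a at 68.9 and 64.1 against 133 and 108 CPM, and Crabp1 at 678 and 663 against 1445 and 1004 CPM. Hand2 and Wnt5a were within 1.5-fold, at 54.1 and 66.1 CPM in control and 47.3 and 75.1 CPM in null distal second arch cells.

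Proximal Hox-negative cells, with at least 3 UMIs of Twist1, Prrx1 and Prrx2 and none of Barx1, Dlx5, Dlx6 or the excluded genes, numbered 1036 control and 1212 null cells. They are named for lacking the distal genes, and their rule holds no proximal marker. They also held heart muscle and smooth muscle RNA (Actc1 at 27.7 and 81.1 CPM, Acta2 at 32.0 and 46.5 CPM) and so are more than first arch mesenchyme. Neural progenitor markers summed to 100 and 115 CPM in them, and epithelial markers to 33.7 and 39.5 CPM, both above the sums in the members. Of 5172 genes, 0.561% were at least 2-fold higher in distal first arch cells in both libraries and 0.773% lower, which is 29 and 40 genes, with Barx1, Dlx5 and Dlx6 fixed by the rule.

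Among the 29 higher genes were distal patterning factors and signalling genes. Wnt5a (chr14:28504750-28527448), a ligand that acts through Ror receptors on cell polarity, stood at 73.9 and 63.4 CPM against 9.92 and 8.57 CPM, and Hand2 at 51.6 and 51.0 against 4.18 and 5.42 CPM. Msx2, a homeobox target of BMP signals, stood at 87.3 and 131 against 24.5 and 41.1 CPM. Mab21l1 and Mab21l2 stood at 13.4 and 54.7 CPM in control distal first arch cells against 1.96 and 21.5 CPM. Csrp2, a LIM-domain protein of the cytoskeleton, stood at 986 and 871 against 334 and 346 CPM, and the secreted Cthrc1 at 151 and 128 against 56.3 and 44.2 CPM. The antisense RNAs Dlx6os1 and Hand2os1 followed their partners, at 67.9 and 20.1 CPM in control distal first arch cells against 0.222 and 2.05 CPM. How strands were counted is not given in the sources used here, so such reads may not be told apart from those of the partner.

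The remaining higher genes were Dlk1, Meg3, Sall4, Car14, Unc5c, Slc25a13, Ebf3, Irs2, Cadm1, Pth1r, Lamb1, Sema5a, Prr16, Tshz1, Stk26, Rap2c and Capn6. Ebf3 went the other way from its relatives, at 27.5 and 34.1 CPM against 6.18 and 8.90 CPM, while Ebf1 stood at 19.2 and 26.8 against 85.2 and 87.2 CPM and Ebf2 at 12.5 and 14.5 against 47.5 and 49.5 CPM. Other genes lower in distal first arch cells were Ptn (139 and 149 against 390 and 400 CPM), the WNT agonist Rspo1 (3.34 and 2.01 against 34.6 and 33.4 CPM), the WNT inhibitor Sfrp1 (37.1 and 27.9 against 82.6 and 62.3 CPM) and the maxillary factor Nr2f1 (137 and 146 against 278 and 297 CPM). The lower genes also included those of heart and smooth muscle proteins such as Myl7, Tnnt2 and Acta2, and the neural progenitor markers Sox2 and Fabp7. What part RNA of other cell types in the proximal class has in the lower genes was not tested.

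Within the members, UMIs of tip markers were captured in part of the cells. At the depth used, a gene held evenly by every cell would also be missed in many of them. The shares below thus do not mark out a group of cells that express a gene. To compare shares, each cell was thinned to 5000 UMIs, which left out 2 control and 13 null members. A Hand2 UMI was then found in 17.9% of control members (15.5% to 20.5%) and 22.6% of null members (20.5% to 24.7%), against 0% and 0.701% of neural cells thinned alike. Without thinning the shares were 48.5% and 52.1%. Thinning to 3000 UMIs turned the order (14.7% and 14.3%) and the levels were nearly equal, so no order between genotypes is read from the Hand2 shares. Wnt5a was found in 25.4% (22.7% to 28.3%) and 26.5% (24.4% to 28.8%), against 3.61% and 4.44% of neural cells.

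UMIs of other patterning factors of the jaw were captured in fewer cells, and these shares have the same limit. Dlx3 had a UMI in 8.79% (7.07% to 10.8%) of control and 6.94% (5.73% to 8.31%) of null members. Lhx8, a LIM-homeobox factor of the oral side of the arch, was found in 5.13% (3.82% to 6.72%) and 11.1% (9.57% to 12.7%), against 0.180% and 0.117% of neural cells. Gsc was found in 0.837% and 1.59% of members, Pitx1 in 0.314% and 1.85%, and Lhx6 in 0.105% and 0.764%, with 0 neural cells of either library for each of the 3 genes, which allows a share of up to 0.332% of control and 0.430% of null neural cells with a UMI at this depth and sets no limit on cells that express the gene.

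**Figure D3:**
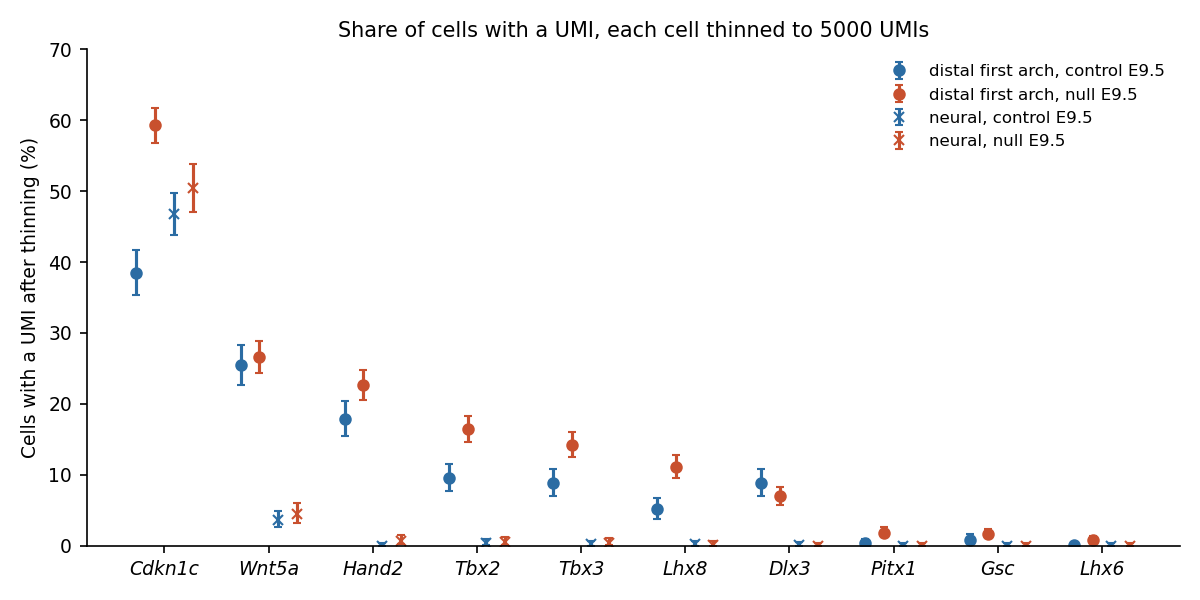
Share of cells with a UMI of each gene after thinning each cell to 5000 UMIs, with 95% Clopper-Pearson intervals, for distal first arch cells (circles) and neural cells (crosses) of the control (blue) and null (red) E9.5 library. Cdkn1c, Tbx2, Tbx3 and Lhx8 stand higher in null than in control distal first arch cells, while Wnt5a and Dlx3 intervals overlap.

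Members with and without a Hand2 UMI left after thinning were compared in summed thinned counts, 171 against 785 control and 355 against 1216 null cells. Cells counted as without Hand2 thus include cells that held a Hand2 UMI at full depth. Levels in this split and the next are scaled by UMI totals alone. They are not on the scale of the levels above. Of 2847 genes, 0.211% were at least 1.5-fold higher with Hand2 in both libraries and 0.0351% lower, that is 6 genes and 1 gene, with Hand2 itself fixed by the split. Dlk1 stood at 123 CPM (100 to 149) in control cells with and 48.4 CPM (41.8 to 55.8) in those without such a UMI, and at 161 (143 to 181) and 72.4 CPM (65.8 to 79.5) in null cells. Igf2 stood at 45.6 against 21.1 CPM in control and 51.3 against 21.5 CPM in null cells, H19 at 124 against 60.9 and 104 against 67.4 CPM, and the BMP pseudoreceptor Bambi at 101 against 56.1 and 110 against 67.8 CPM. Hand2os1 was the sixth gene. Itgb1, an integrin subunit, was lower, at 48.0 against 74.1 CPM in control and 28.7 against 50.2 CPM in null cells. Dlk1, Igf2 and H19 are imprinted genes, as is Meg3, which stood at 174 against 75.4 CPM in control and 165 against 112 CPM in null cells, just short of the fold in the latter.

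The rule genes Dlx5 and Barx1 are given across the Hand2 split as description only. Dlx5 stood at 167 CPM (141 to 197) with and 172 CPM (159 to 186) without Hand2 in control cells, and at 191 (171 to 212) and 180 CPM (169 to 191) in null cells. Barx1 was lower with Hand2, at 449 against 677 CPM in control and 510 against 611 CPM in null cells. Wnt5a was lower with Hand2 as well, at 51.5 against 61.7 CPM in control, where intervals overlap (37.4 to 69.1 and 54.1 to 69.9), and at 45.1 against 72.4 CPM in null cells, where they do not (35.7 to 56.1 and 65.8 to 79.5). In the same null cells Wnt5a and Hand2 were found together in 66 of 1571 cells, 0.700 times the number that independent detection would give, and in control cells in 40 of 956, 0.920 times.

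Cells with a UMI of Lhx6 or Lhx8 left after thinning were 50 of 956 control and 183 of 1571 null members, nearly all through Lhx8. The others include cells that held such a UMI at full depth. Of 2947 genes, 0.204% were at least 1.5-fold higher with these factors in both libraries and 0.0339% lower, 6 genes and 1 gene. Besides Lhx8, fixed by the split, these were Dlk1, Meg3, Ptn, Kif20a and Zmym4, and Pelo was lower. On the control side Kif20a rests on 19 UMIs, Zmym4 on 18 and Pelo on 5, and the control intervals of cells with and without these factors overlap for Dlk1, as given next, Kif20a (45.8 to 119 and 37.6 to 50.0 CPM) and Pelo (6.49 to 46.7 and 45.5 to 59.0 CPM). Dlk1 stood at 100 CPM (64.7 to 148) against 59.6 CPM (52.7 to 67.2) in control and 152 CPM (128 to 179) against 84.6 CPM (77.9 to 91.7) in null cells, and the control value of Dlk1 with these factors rests on 25 UMIs. Lhx8 and Hand2 were found in the same cell 1.60 times as often as independent detection gives in control and 1.30 times in null members, with 14 and 51 such cells. In the null pool Lhx8 was higher in Y-linked than in Xist members, as given below. The log2 null to control ratio of Dlk1 was 0.41 over all members and 0.96 over members with Y-linked UMIs and no Xist. What part sex or embryo has in the null values of this split was not tested.

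The genes that varied most from cell to cell in both libraries, by variance over mean of thinned counts among genes at 50 CPM or more, were led by Malat1, Hist1h1b, mt-Atp6, Hist1h2ap and Gm42418. Hist1h1b and Hist1h2ap are histone genes of the S phase and Ube2c, also among the 15 most variable, is a gene of mitosis. Id1 and Id3, immediate targets of BMP signals, were on the list with ratios of 2.17 and 2.09 in control and 2.00 and 1.85 in null cells. Barx1 itself had 1.93 and 2.02. Dlk1 and Cdkn1c ranked 17 and 18, at 1.78 and 1.70 in control and 1.70 and 2.10 in null cells.

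The null and control members were then compared gene by gene over the 5005 genes at 20 CPM or more in a library. At least 1.5-fold higher in null members were 0.639% of genes and at least 1.5-fold lower were 3.24%, that is 32 and 162 genes, and the median log2 ratio over all genes tested was -0.07. Scaling by UMI totals in place of TMM gave 55 higher and 122 lower genes, and thinning cells before summing gave 67 and 158, so the split between directions is not firm. As a measure of how far libraries of 1 genotype stood apart, distal second arch cells of the 2 control replicates at E10.5 differed by 1.5-fold at 4.88% of 5967 genes, a value that rests on fewer UMIs, 8372888 and 12122181.

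Most called genes were not particular to distal first arch cells. Called at 1.5-fold in either direction, null and control differed at 3.51% of genes in proximal Hox-negative cells, 3.1% in neural cells and 6.22% in the few distal second arch cells. Of the 162 lower genes, 119 were also at least 1.5-fold lower in proximal cells and 117 in neural cells, and of the 32 higher genes 20 and 17 were higher there. A total of 35 lower and 10 higher genes passed the fold in neither. The lower genes included 12 of 17 tested histone genes and 15 of 89 ribosomal protein genes, against 3.24% of all genes tested.

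**Figure D4:**
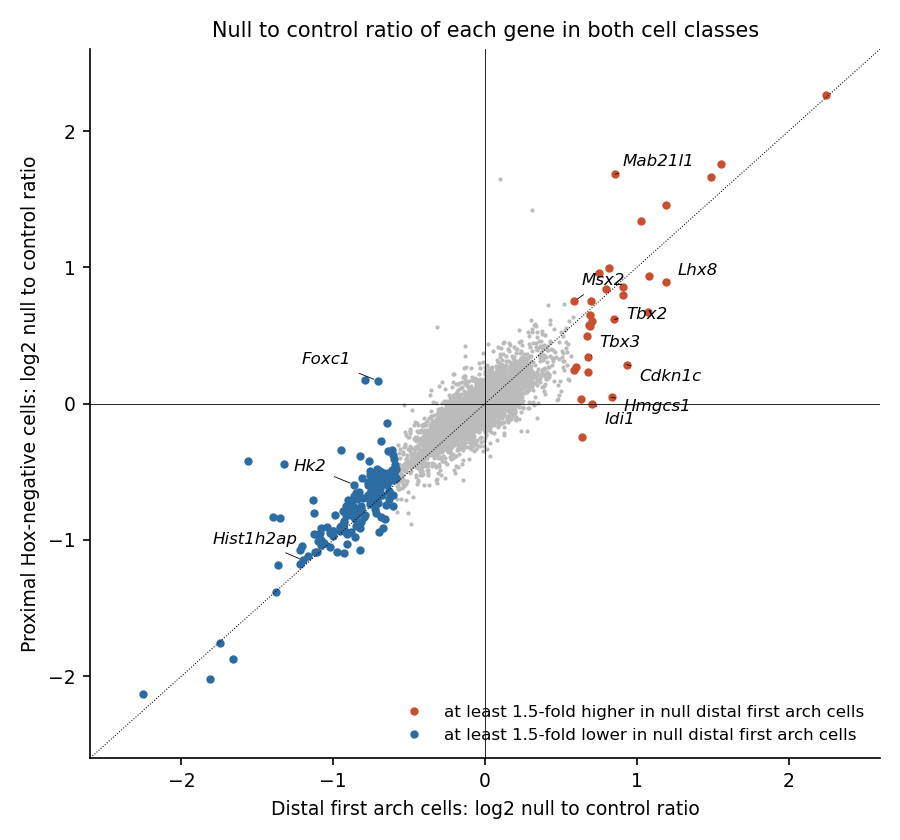
Log2 null to control ratio of each of the 5005 genes tested in distal first arch cells (horizontal) and in proximal Hox-negative cells (vertical), with the 32 genes at least 1.5-fold higher and the 162 lower in colour; the dotted line marks equal ratios and Xist lies outside the axes. Most coloured genes follow the line, while Foxc1, Cdkn1c, Hmgcs1 and Idi1 lie off it, as do unlabelled genes such as Tpm1 and Xaf1.

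The lowest ratios were shared by the classes. Among genes at 50 CPM or more, the 12 lowest included mt-Nd4l, Polr2l, Hist1h2ap, Gm10076, 2810403D21Rik, Hist1h4d, Rps28, Atp5md, Dpm3, Epb41l4aos and Gm2000. Rps28 stood at 3936 CPM in control and 1827 CPM in null members, a log2 ratio of -1.11, and its ratio was -1.09 in proximal and -1.06 in neural cells. Hist1h2ap, at 1137 and 495 CPM, had -1.20, -1.15 and -1.05 in the same order. The kit versions differ between the libraries, and their part in these ratios was not tested. Of the 12 highest ratios, those of Gm42418 and AY036118, which overlap ribosomal RNA sequence, mt-Co3 and mt-Nd2 were positive in the other classes too, with a Gm42418 ratio of 1.55 in members, 1.76 in proximal and 1.98 in neural cells.

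The cell-cycle inhibitor Cdkn1c (p57, chr7:143458339-143461050, an imprinted gene) differed less in the other classes than in the members. It was at 138 CPM (134 to 143) in control and 264 CPM (259 to 270) in null members, a log2 ratio of 0.93 (0.88 to 0.99). The ratio was 0.29 in proximal Hox-negative cells, 0.49 in distal second arch and 0.18 in neural cells. A Cdkn1c UMI was found in 38.5% (35.4% to 41.7%) of control and 59.3% (56.8% to 61.8%) of null members, and in 46.8% and 50.5% of neural cells. Between the E10.5 control replicates the same gene stood at 267 and 193 CPM in distal second arch cells, a log2 difference of -0.47. The ratio stayed past 1.5-fold in each of 12 alternatives, between 0.92 and 1.20.

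Lhx8 (chr3:154306294-154330659) stood at 11.0 CPM (9.69 to 12.4) in control and 25.1 CPM (23.6 to 26.8) in null members, a log2 ratio of 1.19 (0.99 to 1.40). It reached the 20 CPM minimum through the null library alone, so its ratio was in part fixed by that minimum, and it was higher in proximal Hox-negative cells as well, at 15.6 and 29.0 CPM. The T-box repressors Tbx2 (chr11:85832551-85841948) and Tbx3 (chr5:119670669-119684724) stood at 22.0 CPM (20.2 to 24.0) and 20.3 CPM (18.5 to 22.2) in control and at 39.7 CPM (37.8 to 41.8) and 32.4 CPM (30.6 to 34.3) in null members. Their log2 ratios were 0.85 and 0.67 in members against 0.62 and 0.34 in proximal cells. In distal second arch cells the ratios were 1.78 for Lhx8, 0.58 for Tbx2 and 1.83 for Tbx3, of which those of Lhx8 and Tbx3 rest on 9 and 16 control UMIs. The ratios of the 3 genes were thus positive in each mesenchymal class, and for Lhx8 and Tbx3 larger in distal second arch cells than in the members. A Tbx2 UMI was found in 9.52% (7.73% to 11.6%) of control and 16.4% (14.6% to 18.3%) of null members thinned to 5000 UMIs, and a Tbx3 UMI in 8.79% (7.07% to 10.8%) and 14.3% (12.6% to 16.1%). In neural cells thinned alike the shares were 0.361% and 0.467% for Tbx2 and 0.180% and 0.350% for Tbx3. Between E10.5 control replicates Tbx3 differed by 1.01 on the log2 scale at 2.29 and 4.68 CPM, and Tbx2 and Lhx8 by -0.44 and -0.35.

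Foxc1 (chr13:31806633-31812476), a forkhead factor of head mesenchyme, was lower in null members. It stood at 28.5 CPM (26.4 to 30.8) in control and 17.5 CPM (16.2 to 18.8) in null members, a log2 ratio of -0.71 (-0.86 to -0.55), and reached the minimum through the control library alone, while proximal Hox-negative cells held 29.6 and 33.2 CPM and distal second arch cells 27.2 and 33.7 CPM. The ratio fell short of 1.5-fold only where cells were thinned before summing (-0.47). Foxd2, a related factor, stood at 25.7 and 17.9 CPM in members, short of the fold, but was at 31.8 and 19.4 CPM in proximal cells.

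Because the libraries differed in sex, each of these genes was read again in members with Y-linked UMIs and no Xist, the same sex in both libraries. Of the 194 genes past 1.5-fold, 168 were past it in the same direction in these cells and 191 kept their sign, the others being Rpl29, Eif2s3y and Nsdhl. The 191 include Xist, which these cells were chosen to lack in both libraries. Eif2s3y is among the Y-linked genes that chose the cells, so neither ratio is read. Within the null library, 0.589% of 4924 genes were at least 1.5-fold apart between Xist and Y-linked members.

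Cdkn1c stood at 135 CPM (130 to 140) in control Y-linked, 311 CPM (300.3 to 322) in null Y-linked and 243 CPM (236 to 249) in null Xist members, so that both null groups were above the control. Lhx8 stood at 11.0 CPM in control Y-linked, 35.6 CPM (32.1 to 39.4) in null Y-linked and 19.99 CPM (18.2 to 21.9) in null Xist members. Tbx2 was at 21.5, 52.8 and 32.5 CPM and Tbx3 at 19.4, 41.0 and 28.2 CPM in the same order. All 4 genes were thus higher in null Y-linked than in null Xist members, with Xist minus Y-linked log2 differences of -0.36, -0.83, -0.70 and -0.54, within 1 genotype. Foxc1 stood at 30.2 CPM (27.8 to 32.7) in control Y-linked, 17.3 CPM (14.9 to 19.97) in null Y-linked and 16.2 CPM (14.6 to 17.97) in null Xist members, with no gap between the null groups.

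Genes of sterol synthesis divided in another way. Hmgcs1 and Idi1, enzymes of the mevalonate pathway that leads to cholesterol, had ratios among the 12 highest, at 45.7 and 53.9 CPM in control and 81.4 and 88.0 CPM in null members. Their log2 ratios were 0.83 and 0.71 in members, whereas proximal Hox-negative cells held 49.2 and 50.8 CPM of Hmgcs1 and 39.2 and 39.1 CPM of Idi1. In Y-linked members Hmgcs1 stood at 44.9 CPM (42.0 to 48.0) in the control and 49.9 CPM (45.7 to 54.3) in the null library, while null Xist members held 102 CPM (97.5 to 106). Idi1 stood at 53.4, 63.5 and 107 CPM in the same order.

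A list of 21 sterol genes was then drawn up, after these values were seen. Of its 15 genes at 20 CPM or more, 5 were at least 1.5-fold higher in null members (Hmgcs1, Idi1, Fdps, Msmo1 and Nsdhl), 0 were lower and 15 had a positive ratio, with a median log2 of 0.39. Over all genes tested 0.639% were called higher and 36.0% had a positive ratio, and since its first genes led to the list, nothing is read from the count. The same median was 0.03 in proximal and -0.31 in distal second arch cells, where Hmgcs1 had a ratio of -0.30 and Idi1 of -0.33, and it was 0.11 between Y-linked members of both libraries. As description only, since the split of Hmgcs1 and Idi1 had been seen before the list was made, all 15 were within the null library higher in Xist than in Y-linked members, with a median log2 of 0.50, where 62.9% of all genes tested were higher and their median was 0.03. The list's median was 0.08 in proximal and 0.13 in neural cells split alike, but Fdps was as far apart in proximal cells (0.54) as in members (0.57). None of the 5 genes passed the fold between Y-linked members of both libraries, and sex and embryo cannot be told apart within the null pool.

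**Figure D5:**
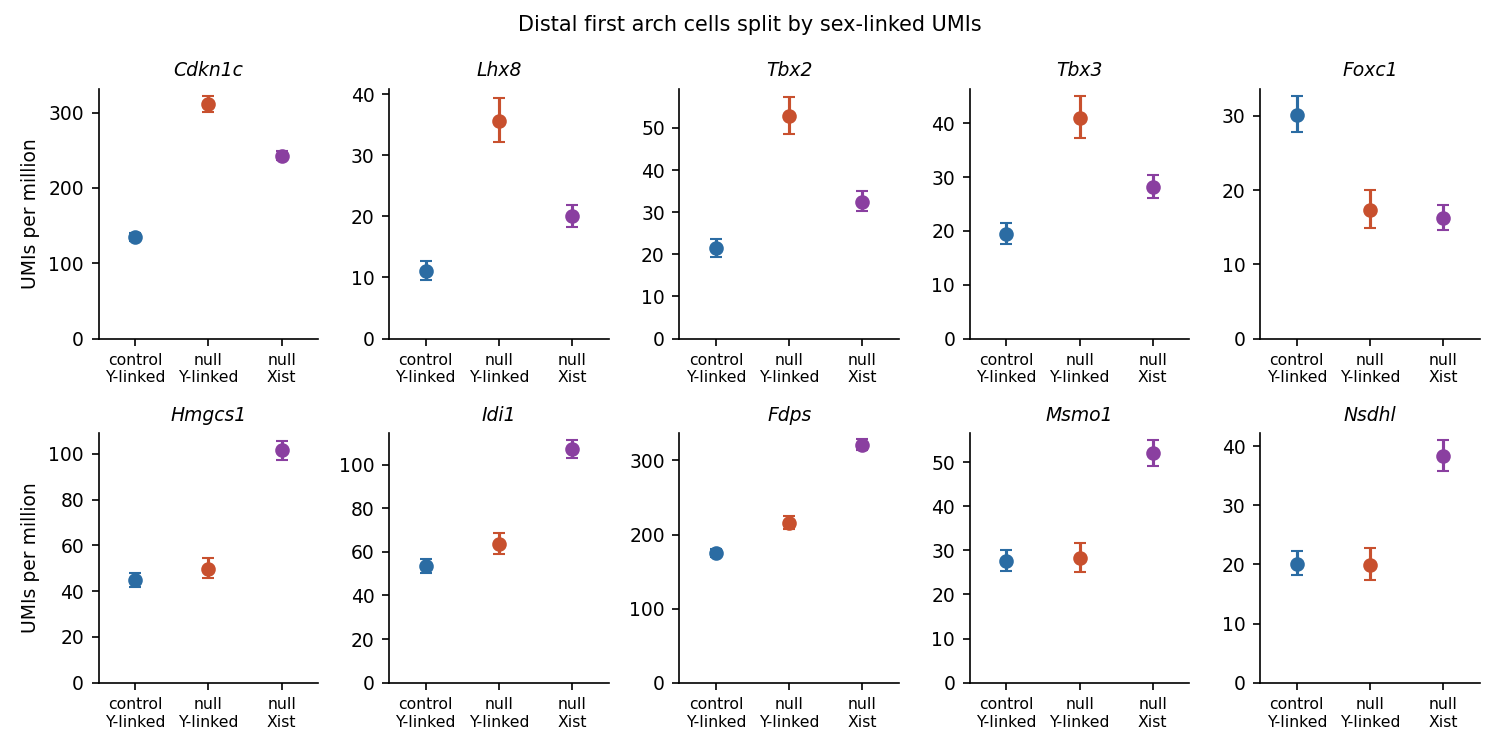
Levels in CPM, with 95% Poisson intervals, of 10 genes in distal first arch cells of the control library with Y-linked UMIs (744 cells), the null library with Y-linked UMIs (470 cells) and the null library with Xist (916 cells); each vertical axis starts at 0. Cdkn1c, Lhx8, Tbx2 and Tbx3 are highest in null Y-linked cells, Foxc1 is low in both null groups, and the 5 sterol genes are highest in null Xist cells.

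Signalling genes were read by list, and against 0.639% of all genes called higher and 3.24% lower, a count of 0 or 1 in lists this short says little. Over all genes tested 36.0% had a positive ratio. Of 11 BMP response genes, 7 were at 20 CPM or more, 7 had a positive log2 ratio and 1 passed the fold, with a median of 0.38 against -0.07 over all genes. The gene past the fold was Msx2, at 87.3 CPM (83.6 to 91.1) in control and 131 CPM (127 to 135) in null members, whose ratio of 0.59 lay at the fold, passed it in 8 of 12 alternatives and was 0.31 in Y-linked members. Id1 stood at 735 and 954 CPM, Id2 at 133 and 190 CPM, Id3 at 724 and 904 CPM and the inhibitor Smad7 at 19.1 and 27.7 CPM, which reached the minimum through the null library alone, so that its sign was in part fixed. In Y-linked members the log2 ratios of Id1 and Id3 were 0.21 and 0.16, against 0.38 and 0.32 in all members. The same list had a median of 0.54 in proximal Hox-negative cells, above that of the distal cells. The BMP ligands Bmp4 and Bmp7 were under 1 CPM, and the receptor Bmpr1a stood at 28.2 and 32.4 CPM.

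FGF and MAPK response genes had 5 of 14 at 20 CPM or more, with 5 positive, 0 past the fold and a median of 0.21. Spry1, a feedback inhibitor of FGF signals, stood at 31.0 and 35.8 CPM and Dusp6 at 57.3 and 59.2 CPM. WNT pathway genes had 7 of 23 at that level, 6 of them negative and 0 past the fold, with a median of -0.22 and of -0.21 in proximal cells. Wnt5a had a log2 ratio of -0.22, the secreted inhibitors Sfrp1 and Sfrp2 stood at 37.1 and 28.6 CPM in control and 27.9 and 20.9 CPM in null members, and the feedback gene Axin2, at 12.3 and 8.25 CPM, was under the level for the comparison. Hedgehog genes had 4 of 10 tested, with Ptch1 at 30.0 and 27.3 CPM and Gli3 at 23.1 and 26.6 CPM, and 0 past the fold. Retinoic acid genes had 4 of 12 tested, all with small negative ratios, led by the binding protein Crabp1 at 678 and 663 CPM.

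Genes of the skeletal condensation list summed to 226 CPM in control and 248 CPM in null members. In proximal Hox-negative cells they summed to 264 and 254 CPM, so they were not particular to the members. Sox9, the factor of cartilage condensation, stood at 105 CPM in control and 99.2 CPM in null members, Col2a1 at 55.2 and 71.5 CPM and Col9a1 at 42.9 and 46.1 CPM. Runx2 and Sp7, bone factors, and the cartilage matrix gene Acan were under 1 CPM. Of 4 genes tested in this list and 5 among the collagens, 0 passed the fold, where 0.639% of all genes passed it upward and 3.24% downward. Col1a2 stood at 87.6 and 94.1 CPM and Col3a1 at 45.1 and 34.9 CPM.

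Proliferation genes went both ways. Of 16 proliferation genes, all tested, 8 had a positive and 8 a negative ratio and 1 passed the fold. Over all genes tested 36.0% had a positive ratio, 0.639% were called higher and 3.24% lower. Mki67 stood at 90.1 and 107 CPM, Top2a at 208 and 239 CPM and Cdk1 at 245 and 318 CPM, while Ccnd1 stood at 229 and 207 CPM. The gene past the fold was Ccne2, at 35.8 and 17.4 CPM, which had a like log2 ratio in proximal cells (-1.04 in members, -0.91 there). Ccne2 reached the 20 CPM minimum through the control library alone, so its ratio was in part fixed by that minimum. Of the other cell-cycle inhibitors, Cdkn2d stood at 17.4 and 23.1 CPM and Cdkn1b at 9.59 and 10.4 CPM.

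The glycolytic genes Ldha and Pgk1 were high in the members and close between genotypes, at 3165 and 3008 CPM and at 1336 and 1514 CPM, while others of the list were not. Of 10 tested genes of glycolysis and hypoxia, Ddit4, tested only through its null level, was past the fold upward, at 11.0 and 23.1 CPM, and the hexokinase gene Hk2 downward, at 94.3 and 51.9 CPM. Over all genes tested 0.639% passed it upward and 3.24% downward, and nothing is read from the count. Hk2 was also lower in null proximal cells (log2 ratios of -0.86 and -0.60), and Ddit4 was higher there (1.07 and 0.67). Among 12 proximal and maxillary factors, 5 were tested and 0 passed the fold, with Nr2f2 at 70.9 and 55.4 CPM. Dissociation stress genes summed to 86.5 CPM in control and 90.3 CPM in null members over 9 genes.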

How the data were processed

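Sorted cells of 7 libraries were sequenced by droplet 3' RNA-seq. The authors aligned reads to mm10 with Cell Ranger 6.0.1 and deposited UMI counts per gene and cell barcode, without normalization. Total counts were 203853100 UMIs (control E9.5) and 234844769 UMIs (null E9.5). Here, counts of the cells of a class were summed per library, scaled by edgeR 4.0.16 TMM factors over the 8 E9.5 sums (R 4.3.3) and given as CPM (counts scaled to a common total) with exact Poisson intervals. Log2 ratios have a pseudocount of 0.5 UMIs. Genes at 20 CPM or more in a library were compared, and called at 1.5-fold between genotypes or 2-fold between classes. Shares have Clopper-Pearson intervals. Intervals cover counting error only, and reads of 1 library say nothing of the spread between embryos. Positions are from GENCODE M21 on mm10.

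The members and all gene lists were chosen with earlier results of these data known. Genes are named if they belong to a list, are among the 12 highest or lowest null to control ratios at 50 CPM or more, the 10 furthest above or below another class in both libraries, or the 15 most variable, and exceptions are stated. Alternatives covered cell filters, the rule's thresholds, doublets (scanpy 1.11.5), scaling (DESeq2 1.42.0), minimum level, pseudocount and thinning. The E8.5 library was used only for the count of cells passing the rule. Some genes that the naming rule covers are not reported here.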

Additional observations from a re-analysis of the deposited data

Results flagged for a closer look

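Cells that pass the same rule at E10.5 lie outside the comparisons above. The first arch had been removed from these dissections, yet 119 cells of control replicate 1 (1.62% of kept cells) and 304 of control replicate 2 (2.96%) passed, against 13 (0.147%) and 2 (0.0288%) in the null replicates and 0 of 5874 at E8.5, whose 95% interval reaches 0.0628%. Distal second arch cells numbered 295 and 513 in the control and 113 and 2 in the null replicates, and a cell with a Hoxa2 UMI does not pass the rule. Hoxa2 took out 776 and 1181 control cells and 353 and 14 null cells that had passed the Barx1 and Dlx conditions. Whether the cells that remained are first arch mesenchyme or second arch cells without a captured Hoxa2 UMI was not tested.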

How the results depend on the processing

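No paired analysis was possible because each E9.5 genotype has 1 library and no test was made. The control share of 11.1% was 11.9% with at least 1 Barx1 UMI, 13.3% with at most 1 UMI of the excluded genes and 6.82% when the rule was read after thinning, and the null share of 14.98% was 16.4%, 18.2% and 9.25% under the same settings and 13.9% with at least 3 Barx1 UMIs. The ratio of shares, 1.35, was 1.11 among mesenchymal cells. The 32 genes higher in null members became 55 with UMI totals, 67 with thinned sums, 14 with a minimum of 50 CPM and 3105 with no minimum, where single UMIs pass the fold, and the 162 lower became 2562 with no minimum. Against distal second arch cells, 14 genes became 25 with thinned sums, 5 with a minimum of 50 CPM and 3383 with none, and against proximal Hox-negative cells 69 became 31 and 1662. In members with Y-linked UMIs and no Xist, an alternative chosen after seeing the data, the log2 ratios of Rpl29 (-0.64) and Eif2s3y (0.45) turned sign, as did that of Nsdhl (-0.01), the other gene past the fold to do so, and that of Barx1 (0.10, against -0.23 over all members). The Eif2s3y ratio was shaped by the choice of cells, since its UMIs helped to choose them. Of 152 named genes, 18 turned sign in these members and 68 moved by less than their counting interval. With UMI totals 15 turned sign and 68 moved by less than that interval, and with thinned sums 17 and 75. The rule read after thinning left too few distal second arch cells for a comparison. With 1 library per genotype, differences between embryos, kits and genotypes cannot be told apart, and genes under 20 CPM were not compared.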

Other observations

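Rpl29, a ribosomal protein gene, had the highest null to control ratio after Xist among the genes tested, at 119 CPM in control and 564 CPM in null members. The level differed between Xist and Y-linked cells of the null pool, where sex and embryo cannot be told apart. Null Y-linked members held 74.8 CPM (69.7 to 80.2), below the 116 CPM (112 to 121) of control Y-linked members, and null Xist members held 844 CPM (832 to 856). Xist and Y-linked cells of the null library were as far apart in proximal Hox-negative cells (3.30 on the log2 scale) and in neural cells (3.58) as in the members (3.50). The E10.5 control replicates also differed, with 284 and 1179 CPM in distal second arch cells. Tmem14c, a mitochondrial membrane gene, had the same form at a smaller size, with 34.0 CPM in control Y-linked, 35.6 CPM in null Y-linked and 69.4 CPM in null Xist members, and Xist to Y-linked differences of 0.96, 0.90 and 1.23 on the log2 scale in members, proximal and neural cells.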
